A study of Mus musculus with 8 samples.

Results

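The comparison described here sets 1 induced pluripotent stem (iPS) line, iPS cell line 2, against the embryonic stem (ES) control cells of the same study. iPS cells are body cells that have been turned back to a pluripotent state by reprogramming factors, and the lines of this series are described as free of integrated vectors. The members were taken by the titles of the arrays: 2 arrays of line 2 and 2 arrays of the ES control, which are 4 of the 8 arrays of the series. The other 4 arrays belong to iPS lines 1 and 3, with 2 arrays each, and served to ask whether a change in line 2 differed from theirs. Both kinds of cell carried the same labels for strain (C57BL/6), sex (male) and culture, which was in N2B27 medium plus LIF (leukaemia inhibitory factor), a cytokine that holds mouse stem cells in the naive pluripotent state, and all were taken at passage 7 to 10, per the design text. Total RNA was measured on Affymetrix 3′ expression arrays, and after a filter on dim probe sets 14004 genes were tested. Line 2 is a single line and the ES control is a single label, so what belongs to line 2 and what belongs to iPS cells in general cannot be told apart by these 4 arrays alone. No label says whether the replicates were separate cultures, so the spread behind the p-values is that of these arrays and could be of technical origin.

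Mouse naive pluripotent cells keep themselves going through a core of transcription factors (Oct4, encoded by Pou5f1, with Sox2 and Nanog) and an outer network that LIF feeds through Stat3, Klf4 and Tbx3. FGF4 that the cells secrete drives the ERK kinase pathway, which prepares them for differentiation and switches on its own feedback genes such as Dusp6, Spry4, Etv4 and Etv5. Naive cells grow as compact colonies with E-cadherin junctions, divide fast with little G1 phase, and use Myc to keep ribosome production high. Bulk arrays average over all cells of a dish, so fewer cells of a kind and less RNA per cell cannot be told apart in what follows.

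The core factors were far above the floor (a signal of 37.1, under which a probe set counts as dim) in every array of both groups. Sox2 gave signals (arbitrary units of linear intensity) of 12330 and 13290 in the ES arrays and 12150 and 13110 in line 2, and its difference of -0.020 ± 0.059 on the log2 scale (SE, adjusted p = 0.849) did not pass the test. Nanog read 15090 and 17290 against 13860 and 14410 (-0.19 ± 0.074, adjusted p = 0.0756), and it passed the test, at -0.29 with adjusted p = 0.0291, when ES replicate 1 was left out. Pou5f1 was slightly lower in line 2, with 12040 and 11790 in ES and 10650 and 9680 in line 2 (-0.23 ± 0.062, adjusted p = 0.0153). That call did not survive leaving out ES replicate 1 (adjusted p = 0.0903), ES replicate 2 (0.0548) or line 2 replicate 2 (0.125). The outer naive factors Tfcp2l1, Klf2, Esrrb and Zfp42 (Rex1), which were picked for this check after their values were seen, differed by 0.015, 0.12, -0.23 and -0.17 and none of them passed the test. They do not stand for the whole network, since 22 of the 42 genes of the naive list were lower in line 2. Tbx3 was among the genes called lower, though not with its probe sets averaged (-0.28, adjusted p = 0.114). The messages named in this paragraph were therefore present in line 2, which does not mean that the naive network was unchanged.

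Differences between line 2 and ES cells were many and mostly small. Of the 14004 genes, 3741 (26.7%) passed an adjusted p of 0.05, with 2258 (16.1%) higher in line 2 and 1483 (10.6%) lower. These shares are the background against which the counts of list members below are read. Changes of at least 2-fold were fewer, at 507 genes higher and 145 lower. The median of all genes was 0.071 on the log2 scale. The deposited signals have the same trimmed mean in every array, and the 2 arrays of line 2 had the highest median signals (62.3 and 64.3, against 54.1 to 59.9 in the others). Quantile normalization moved the median of all genes to 0.01 and centring each array on its median moved it to -0.02. The share of called genes that were higher in line 2 was 60.4% as deposited, 52.9% after quantile normalization and 46.0% after centring, so the balance of higher and lower genes depends on the scaling. The ratio of 3′ to 5′ signal of the beta-actin control probe sets, a measure of RNA integrity, was 1.74 and 1.79 in line 2. No array of ES cells, line 1 or line 3 exceeded 1.62. The same ratio of the Gapdh control probe sets was 0.915 and 0.946 in line 2, and from 0.856 to 0.935 in the other arrays. The part of RNA integrity in the results below was not tested.

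Line 2 also differed from the other iPS lines. A test of line 2 against the mean of lines 1 and 3 called 4552 genes (32.5%), of which 2748 (19.6%) were higher in line 2 and 1804 (12.9%) lower. Both tests use the same 2 arrays of line 2, so a gene that passes both has not been tested independently a further time. For comparison, line 1 had 327 called genes against ES cells and line 3 had 581. The changes of lines 1 and 3 against ES cells are given below beside those of line 2 where they help to read them, and they share the ES arrays with it.

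**Figure D1:**
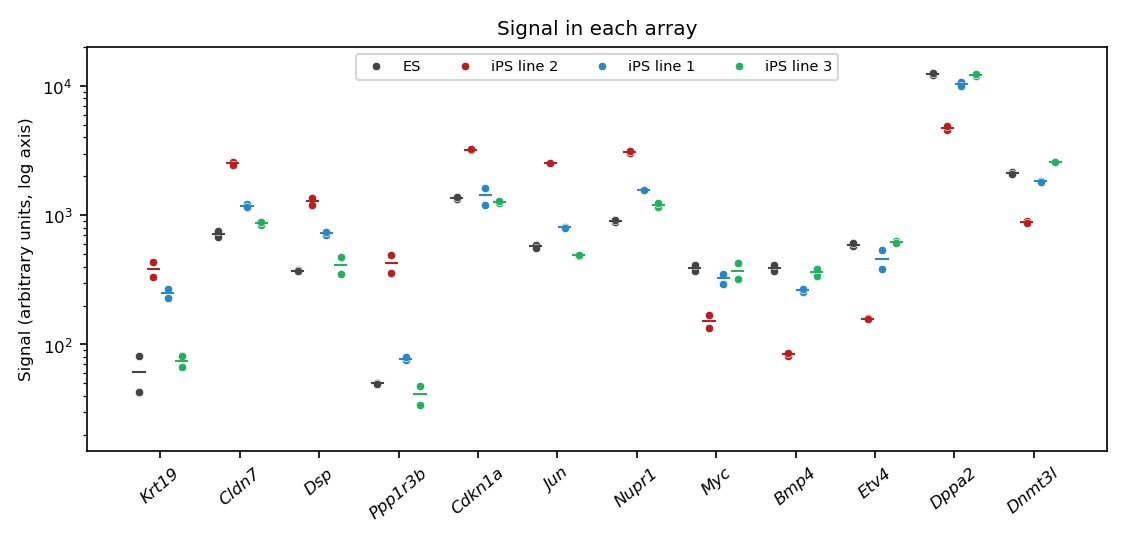
Signal in each array (log axis, arbitrary units) for 12 genes discussed in the text. Each point is an array, the short bars are the means of the 2 arrays of a group, and the colours mark ES cells, line 2, line 1 and line 3. Krt19 to Nupr1 sit higher and Myc to Dnmt3l lower in both arrays of line 2 than in both ES arrays.

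The naive pluripotency list of 42 genes moved mostly down around that core. In line 2, 22 of the 42 were lower than in ES cells (52.4%, against 10.6% of all genes) and 4 were higher (9.52%, against 16.1%), with a median of -0.25 over the list against 0.071 over all genes. Against lines 1 and 3, 18 members were lower and 6 higher. The count of lower members was 20 after quantile normalization and 26 after centring. Without line 2 replicate 2 the higher members numbered 2. The members that fell furthest were Dppa2, Nr0b1 and Dnmt3l.

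Dppa2, a DNA-binding protein that works with Dppa4 to keep developmental and early embryonic genes open to activation, fell from 12160 and 12610 in the ES arrays to 4594 and 4876 in line 2. Its change was -1.39 ± 0.060 (adjusted p = 2.70e-08), and lines 1 and 3 changed by -0.26 and -0.030. Dppa4 fell from 6342 and 6433 to 3757 and 3593 (-0.80 ± 0.082, adjusted p = 2.05e-05), so both partners were lower in line 2. Nr0b1 (Dax1), a nuclear receptor that binds Oct4, read 6805 and 6677 in ES cells and 2877 and 2442 in line 2 (-1.34 ± 0.081, adjusted p = 3.25e-07). Gdf3, a TGF-beta family ligand of pluripotent cells, read 4195 and 4380 against 2713 and 2680 (-0.67 ± 0.061, adjusted p = 8.23e-06). Utf1, a chromatin-bound factor, and Foxd3, a forkhead repressor of the formative list, were -0.86 and -0.95, and Sall4 and Zscan10 -0.35 and -0.67 (these 4 were picked after their values were seen). Dppa3 (Stella), a maternal factor that protects imprints, went the other way, from 1513 and 1586 to 3365 and 3135 (1.06 ± 0.11, adjusted p = 2.41e-05). It was 0.95 in line 1 and 0.75 in line 3, and line 2 did not differ from their mean (adjusted p = 0.119). Klf4 was higher by 0.30 ± 0.057 (adjusted p = 0.00171), with 15130 and 14950 in ES cells and 17810 and 19370 in line 2.

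Genes linked to the 2-cell-like state, a rare state of ES cells that resembles the early embryo, included 5 lower members of 10 measured. That is 50%, against 10.6% of all genes, and none was higher. The median of the list against ES cells was -0.43 in line 2, -0.70 in line 1 and -0.019 in line 3, so as a list it was lowest in line 1. Pramel7, which favours the naive state, read 176 and 191 in ES cells and 40.7 and 28.2 in line 2 (-2.09 ± 0.28, adjusted p = 1.56e-04). Its relative Pramel6 was at or under the floor of 37.1 in both arrays of line 2 (35.0 and 21.9) against 151 and 115 in ES cells, which makes it at least 3.55-fold lower. Both were lower than in lines 1 and 3 as well, but those calls were lost when line 2 replicate 2 was left out (adjusted p = 0.0592 for Pramel6 and 0.083 for Pramel7). Their probe sets can read related genes, and with such probe sets left out Pramel6 was at -0.76 and not called (adjusted p = 0.375). Genes of the formative and primed states, which follow the naive state, were split. Of 27 measured, 5 were higher (18.5%, against 16.1% of all genes) and 8 lower (29.6%, against 10.6%). Fewer were called lower without ES replicate 2.

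The feedback genes of FGF and ERK signalling fell together in part. Of 17 measured members, 6 were lower (35.3%, against 10.6% of all genes) and 1, the receptor Fgfr1, was higher (5.88%, against 16.1%). The count of higher members was 0 after quantile normalization, after centring, without ES replicate 2 and without line 2 replicate 1, among other alternatives. Etv4, an ETS factor induced by ERK, fell from 576 and 605 to 159 and 157 (-1.82 ± 0.15, adjusted p = 3.05e-06), among the largest decreases of the comparison. In lines 1 and 3 it changed by -0.38 and 0.073, and the difference of line 2 from them was -1.67 (adjusted p = 1.53e-06). Its relative Etv5 read 8182 and 6389 against 4436 and 4595 (-0.68 ± 0.13, adjusted p = 0.00213). Dusp6, the phosphatase that switches off ERK, read 2387 and 2259 against 1377 and 1479 (-0.70 ± 0.072, adjusted p = 2.09e-05). Spred1, an inhibitor of Ras and Raf, was -0.55 and Ets2 -0.54. Ets2 was lower in all 3 lines (-0.49 in line 1 and -1.02 in line 3), and line 2 did not differ from the mean of the others (adjusted p = 0.0666). The ligand Fgf4 itself read 5897 and 6233 and 5764 and 5380, a difference of -0.12 that did not pass the test (adjusted p = 0.263). Where the probe sets of each gene were averaged, 3 members of the list were called lower, and Spred1 (adjusted p = 0.29) and Ets2 (0.172) were not among them. Etv5 was not called without the variance trend (adjusted p = 0.067).

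Immediate early genes, which cells transcribe within minutes of a stimulus without new protein synthesis, were higher in many cases. Of 41 measured members, 22 were higher (53.7%, against 16.1% of all genes) and 4 lower, and the count of higher members was 22 after quantile normalization and 20 after centring. Jun, a subunit of the AP-1 transcription factor, rose from 590.4 and 559 in the ES arrays to 2537 and 2514 in line 2 (2.11 ± 0.085, adjusted p = 1.99e-08), while lines 1 and 3 changed by 0.48 and -0.23. Fos, its partner in AP-1, read 3917 and 4052 against 8567 and 8453 (1.09 ± 0.060, adjusted p = 1.72e-07). Egr1, a zinc finger factor of the serum response, read 1986 and 1925 against 5601 and 6327 (1.600 ± 0.086, adjusted p = 1.56e-07). Klf6 rose by 1.29 ± 0.092 and Fosb and Atf3, both picked after their values were seen, by 1.53 and 1.12. All 6 genes had both arrays of line 2 above both ES arrays, and all 6 were also higher than in lines 1 and 3. The 4 members that fell were Myc, Dusp6, Zfp36l1 and Ier2. The cells had been detached with trypsin and washed before lysis, per the labels' protocols, and no label separates the groups in this step. Its part in these values was not tested.

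**Figure D2:**
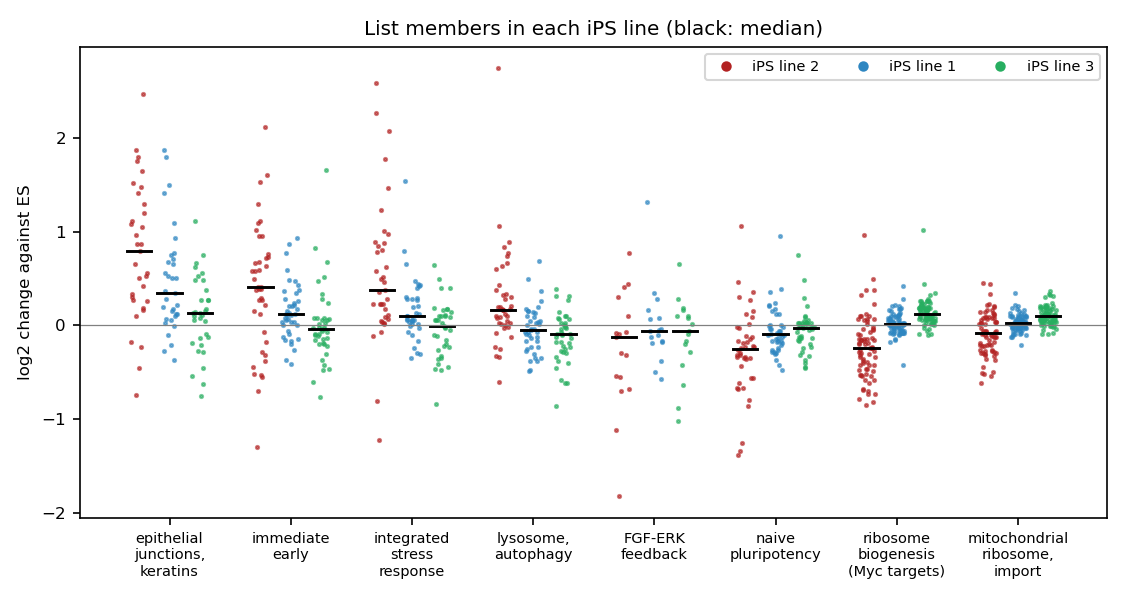
Log2 change against ES cells of every measured member of 8 gene lists, for line 2, line 1 and line 3 from left to right in each list, with the median as a black bar. The epithelial, immediate early and stress response medians of line 2 are 0.79, 0.41 and 0.37, and those of the naive pluripotency and ribosome biogenesis lists are -0.25 and -0.24. The ES arrays are common to all 3 lines.

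Myc, the growth regulator used in reprogramming, fell from 368 and 414 to 169.7 and 134 (-1.304 ± 0.17, adjusted p = 1.60e-04). It was -0.26 in line 1 and -0.076 in line 3, and the difference of line 2 from them was -1.14 (adjusted p = 1.10e-04). Its relative Mycn, picked after its value was seen, read 4190 and 4179 against 4862 and 5203 (0.26 ± 0.064, adjusted p = 0.00854), a rise that was not called without ES replicate 2 (adjusted p = 0.0503), without line 2 replicate 2 (0.065) or after centring (0.159). A list of 74 known Myc targets in ribosome production had 38 members lower (51.4%, against 10.6% of all genes) and 5 higher, with a median of -0.24. Against lines 1 and 3, 47 members were lower and 5 higher. Quantile normalization gave 40 lower members and centring 43, whereas a fit without the variance trend gave 23.

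The lower members cover several steps of ribosome assembly. Polr1b and Polr1e, subunits of RNA polymerase I, which transcribes the ribosomal RNA, were -0.85 ± 0.11 and -0.82 ± 0.097 (adjusted p = 1.05e-04 and 6.58e-05; both were picked after their values were seen). Utp4, a part of the small subunit processome that acts on the early RNA precursor, read 5316 and 5164 in ES cells and 3289 and 3021 in line 2 (-0.73 ± 0.066, adjusted p = 7.33e-06). Imp4, of the same machine, read 3168 and 3464 against 2037 and 1937 (-0.73 ± 0.068, adjusted p = 9.11e-06). Noc3l, an assembly factor of the large subunit, read 1158 and 1277 against 714 and 686 (-0.79 ± 0.084, adjusted p = 2.76e-05). Grwd1, a histone and ribosomal protein chaperone, was -0.68, and Nip7, which acts in large subunit assembly, -0.53, the latter not called with its probe sets averaged (adjusted p = 0.161). In lines 1 and 3 these 5 genes, from Utp4 to Nip7, changed by between -0.08 and 0.26. Of the ribosomal proteins themselves, 1 of 43 measured was higher (2.33%, against 16.1% of all genes) and 3 were lower (6.98%, against 10.6%). The median of the list was 0.093. Within 250 bases before the start, the letters CACGTG, the E-box that Myc and other factors bind, were found in 3 of the 35 lower ribosome biogenesis genes with a promoter in the table (8.57%), in 8 of the 31 that were not lower (25.8%) and in 9.6% of all tested genes with one.

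Genes for the mitochondrial ribosome and for protein import into mitochondria also leaned down. Of 73 measured, 24 were lower (32.9%, against 10.6% of all genes) and 4 higher (5.48%, against 16.1%), with a median of -0.082, and against lines 1 and 3 34 were lower and 1 higher. Mrps18b, a protein of the small mitochondrial subunit, read 3910 and 3740 against 2693 and 2290 (-0.62 ± 0.086, adjusted p = 2.01e-04). Mrpl17, of the large subunit, read 7001 and 7426 against 5198 and 4709 (-0.54 ± 0.067, adjusted p = 8.09e-05; 0.171 with its probe sets averaged), and Timm10, a chaperone of the space between the membranes, was -0.50. The count of lower members depends on single arrays: it was 11 without ES replicate 2 and 14 without line 2 replicate 2, and 8 without the variance trend. The subunits of oxidative phosphorylation had no fixed direction. As deposited, 8 of 56 were higher (14.3%, against 16.1% of all genes) and 2 lower (3.57%, against 10.6%). After quantile normalization 18 were higher, and after centring 1 was higher and 3 were lower.

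**Figure D3:**
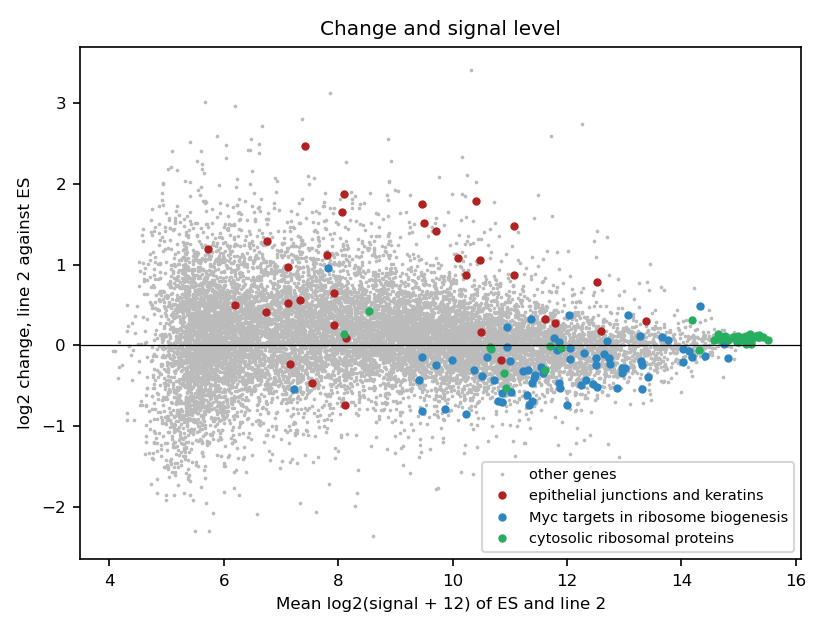
Log2 change of line 2 against ES cells (vertical) by the mean log2(signal + 12) of the 2 groups (horizontal) for all 14004 genes in grey, with 3 lists in colour. Most epithelial genes (red) lie above 0 and most ribosome biogenesis genes (blue) below 0, while cytosolic ribosomal proteins (green) sit near 0 at the bright end.

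The strongest rise among the lists outside the hypoxia response was that of epithelial genes. Of 33 measured junction and keratin genes, 20 were higher in line 2 (60.6%, against 16.1% of all genes) and 1 was lower, with a median of 0.79. The count of higher members was 20 after quantile normalization and 18 after centring. Against lines 1 and 3, 18 members were higher and 1 lower (19.6% and 12.9% of all genes). The medians of lines 1 and 3 against ES cells were 0.35 and 0.13.

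Keratins form the intermediate filaments of epithelial cells. Krt19 rose from 80.8 and 42.5 in ES cells to 438 and 334 in line 2 (2.47 ± 0.26, adjusted p = 2.49e-05), and was 1.87 in line 1 and 0.27 in line 3. Krt7 rose from 125 and 136 to 510 and 511 (1.87 ± 0.16, adjusted p = 4.28e-06) and exceeded lines 1 and 3 by 1.69 (adjusted p = 2.16e-06). The pair Krt8 and Krt18, which assemble with each other, read 715 and 759 against 1561 and 1587 and 995 and 971 against 2059 and 2046, with changes of 1.08 and 1.05. Line 1 was higher still for both (1.79 and 1.502), and line 2 did not differ from the mean of lines 1 and 3 (adjusted p = 0.180 and 0.169). Krt19 exceeded lines 1 and 3 by 1.397 (adjusted p = 4.53e-04). After centring, Krt8 was lower in line 2 than in lines 1 and 3 (-0.26, adjusted p = 0.0325).

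Tight junction and desmosome genes rose with them. Cldn7, a claudin that forms the seal between epithelial cells, read 681 and 753 in ES cells and 2573 and 2449 in line 2 (1.79 ± 0.085, adjusted p = 6.33e-08). Pkp2, a plakophilin of the desmosome plaque, read 1280 and 1271 against 3437 and 3695 (1.47 ± 0.072, adjusted p = 7.88e-08). Esrp1, the splicing factor that sets the epithelial isoforms of many messages, read 510.2 and 494 against 1425 and 1296 (1.42 ± 0.090, adjusted p = 4.44e-07). Esrp1 was also high in the other lines (1.096 and 1.12), and the smaller difference from them, 0.31, was lost without line 2 replicate 1 (adjusted p = 0.101). Further members, picked after their values were seen, were Dsp (desmoplakin) at 377 and 369 against 1363 and 1207 (1.75), Crb3 (apical polarity) at 378 and 455 against 1253 and 1165 (1.51) and Tjp3 (a tight junction scaffold) at 128 and 152 against 512 and 418 (1.65). Of the adhesion genes, Epcam went from 4375 and 4559 to 7971 and 7512 (0.79) and E-cadherin (Cdh1) from 9605 and 9648 to 11410 and 12300 (0.30), the latter not called after centring (adjusted p = 0.062). Jup (plakoglobin) was the single member that fell, from 314 and 379 to 186 and 218 (-0.74).

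Several of these genes also mark trophoblast, the outer layer of the early embryo. In the trophoblast marker list 7 of 22 measured members were higher (31.8%, against 16.1% of all genes) and 3 lower (13.6%, against 10.6%). The summed signal of the list was 7788 and 7828 in the ES arrays, 12860 and 13610 in line 2, 11920 and 12280 in line 1 and 8145 and 7732 in line 3. Of the 7 higher members 4 are the keratins above, and the others are Id2, Tfap2c and the imprinted factor Ascl2 (84.4 and 91.4 against 276 and 295, 1.57, picked after its value was seen). The defining regulator Cdx2 read 63.6 and 39.6 in ES cells and 60.7 and 101 in line 2 and did not pass the test (adjusted p = 0.340), and Elf5 did not pass the filter on dim values. The part of trophoblast-like cells in the epithelial result was not tested. Tfap2c, an AP-2 factor of trophoblast, germ cells and naive cells, read 1694 and 1532 against 3056 and 3556 (1.03 ± 0.11, adjusted p = 3.60e-05).

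**Figure D4:**
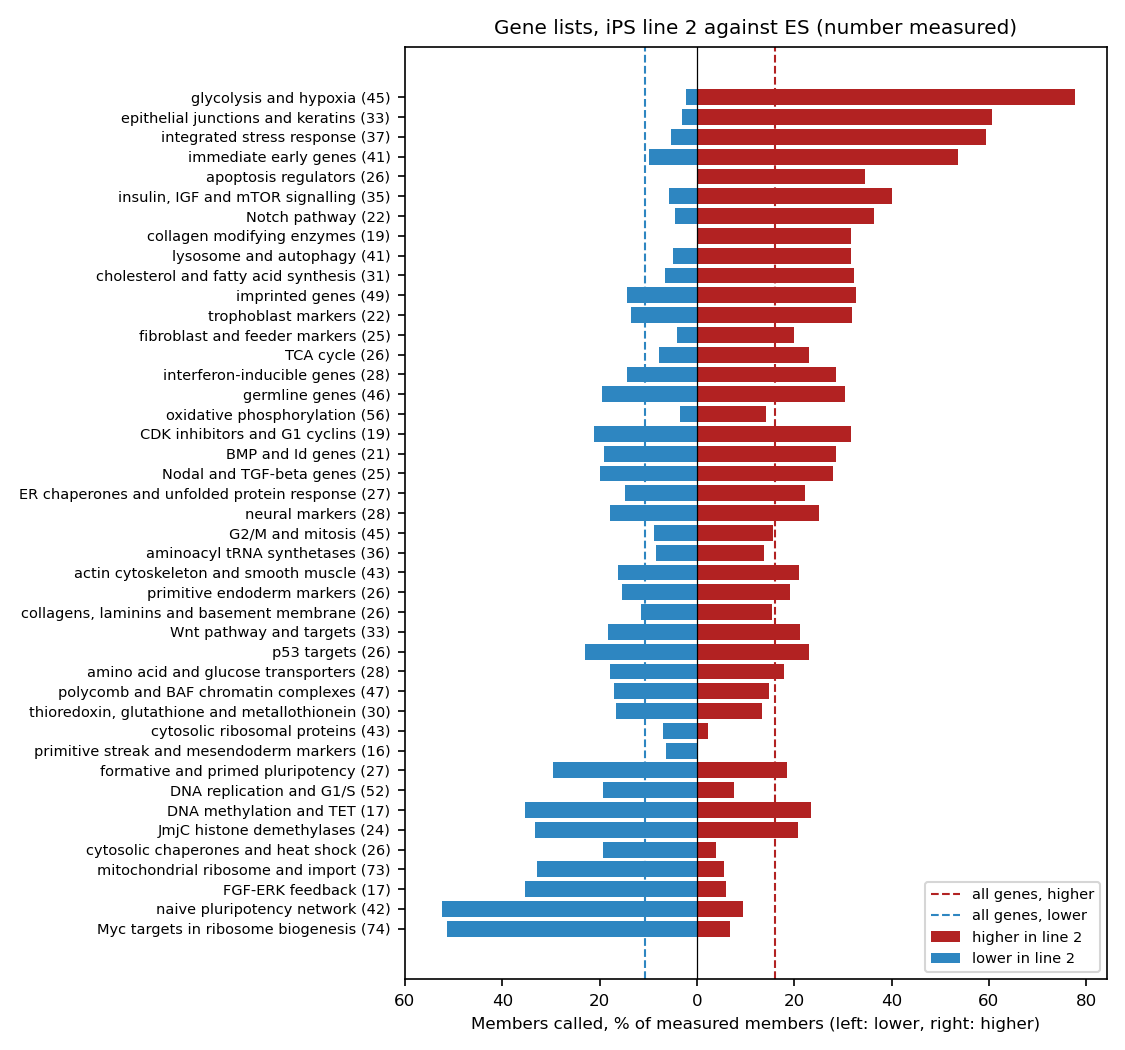
Share of the measured members of each list with at least 15 measured genes that were called higher (red, to the right) or lower (blue, to the left) in line 2 than in ES cells. The dashed lines are the shares over all 14004 genes, 16.1% higher and 10.6% lower. Epithelial, stress response and immediate early genes reach 60.6%, 59.5% and 53.7% higher, and naive pluripotency and ribosome biogenesis genes 52.4% and 51.4% lower.

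Genes of the integrated stress response were higher. This pathway slows translation when amino acids or the endoplasmic reticulum are under strain and raises the transcription factor Atf4, which switches on genes for amino acid supply and for stress adaptation. Of 37 measured genes, 22 were higher (59.5%, against 16.1% of all genes) and 2 lower (5.41%, against 10.6%), with a median of 0.37. Against lines 1 and 3, 20 were higher and 3 lower. The count of higher members was 24 after quantile normalization and 19 after centring. Promoter stretches of 5 of the higher genes are shown because they hold the letters TGATGNAA, the core of the site that Atf4 binds with its partner C/EBP. Each runs 5′ to 3′ on the strand of its gene, from the mouse RefSeq promoters of build GRCm38.p6, with the match, on either strand, in capitals.
Chac1, chr2:119351024-119351081: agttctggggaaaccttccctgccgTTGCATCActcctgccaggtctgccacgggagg
Herpud1, chr8:94386292-94386349: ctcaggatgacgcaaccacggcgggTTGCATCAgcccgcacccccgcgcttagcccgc
Jdp2, chr12:85599358-85599415: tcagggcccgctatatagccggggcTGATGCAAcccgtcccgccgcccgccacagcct
Nupr1, chr7:126625548-126625605: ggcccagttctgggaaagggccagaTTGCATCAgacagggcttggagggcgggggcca
Vldlr, chr19:27216795-27216852: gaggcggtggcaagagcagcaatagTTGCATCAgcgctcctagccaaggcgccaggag
Nupr1 lies on the minus strand and the other 4 on the plus strand. Within 250 bases before the start, 5 of the 21 higher stress response genes with a promoter in the table held a match (23.8%), against 2.41% of 11275 tested genes with one and 3.45% of all 32851 promoters. A match is only a run of letters and shows no binding. The list was drawn up from known genes of this pathway, and its members that were not higher were not counted apart. The share therefore describes the list and says nothing about line 2.

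Nupr1, a stress-induced chromatin protein, rose from 878 and 923 to 3052 and 3159 (1.77 ± 0.076, adjusted p = 2.70e-08), with 0.79 in line 1 and 0.40 in line 3. Vldlr, a lipoprotein receptor, rose from 120.3 and 113 to 596 and 618 (2.27 ± 0.17, adjusted p = 1.60e-06). Herpud1, which helps to remove misfolded proteins from the endoplasmic reticulum, read 378 and 381 against 795 and 754 (1.005 ± 0.11, adjusted p = 3.27e-05). Chac1, which degrades glutathione, and Jdp2, an AP-1 repressor, were 1.47 and 0.98, and Ddit3 (Chop), the stress factor downstream of Atf4, was 0.80 (these 3 were picked after their values were seen). Atf4 read 7930 and 8651 in ES cells and 9864 and 9550 in line 2, a rise of 0.23 ± 0.064 (adjusted p = 0.0191), and the classic target Asns (asparagine synthetase) was at 0.091 and not called (adjusted p = 0.221). The members with the largest changes, Ddit4 (2.59), Vldlr and Stc2 (2.07), also stand on the glycolysis and hypoxia list. The 2 members that fell are amino acid genes: Slc7a3, a transporter of cationic amino acids, read 5883 and 5407 against 2481 and 2326 (-1.23 ± 0.077, adjusted p = 4.11e-07), and Cth, which makes cysteine, read 5974 and 6019 against 3404 and 3422 (-0.81).

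Of 19 measured CDK inhibitors and G1 cyclins, 6 were higher (31.6%, against 16.1% of all genes) and 4 lower (21.1%, against 10.6%), and against lines 1 and 3 the counts were 8 and 3. Cdkn1a (p21), an inhibitor of cyclin-dependent kinases, rose from 1345 and 1386 to 3189 and 3242 (1.23 ± 0.11, adjusted p = 7.88e-06), against 0.041 and -0.11 in lines 1 and 3. Ccng2, an atypical cyclin found in arresting cells, rose from 808 and 806 to 1986 and 1908 (1.26 ± 0.084, adjusted p = 6.46e-07). Cdkn1b (p27), picked after its value was seen, was 0.99 ± 0.16. Cyclin D1 (Ccnd1) fell from 3909 and 4227 to 2730 and 2832 (-0.55 ± 0.063, adjusted p = 5.02e-05) and its kinase Cdk6 from 919 and 850.5 to 498 and 539 (-0.76). Genes of DNA replication were called lower in 10 of 52 cases (against 10.6% of all genes) and higher in 4 (against 16.1%). After quantile normalization 8 were higher and 8 lower, and after centring 3 were higher and 12 lower. The lean of this list downward thus depended on the scaling. Fewer of its members were called lower without ES replicate 2. Mitotic genes were called higher in 7 of 45 cases (15.6%) and lower in 4 (8.89%), near the shares of all genes. Among target genes of p53, a list that holds p21, 6 of 26 were higher (23.1%, against 16.1% of all genes) and 6 lower (23.1%, against 10.6%) than in ES cells. Against lines 1 and 3, 13 were higher and 4 lower (19.6% and 12.9% of all genes). The median of the p53 list against ES cells was 0.039 in line 2, -0.30 in line 1 and -0.16 in line 3. Among regulators of cell death 9 of 26 were higher (34.6%, against 16.1% of all genes) and none was lower. After quantile normalization 8 were higher and 1 lower, and after centring 6 were higher and 2 lower. The higher members as deposited include Casp6, an effector caspase (289.6 and 299 against 805 and 680.4, 1.296), Bnip3, a mitochondrial protein that is also a known hypoxia target (2.74), Bcl2l2 (Bcl-w), which protects from death (1.15), and Bcl2l11 (Bim), which promotes it (0.66). With probe sets averaged, neither Bcl2l2 (adjusted p = 0.442) nor Bcl2l11 (0.053) was called.

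With the glycolysis and hypoxia list left out, the genes with the largest changes were mostly on none of the other lists. That list holds changes of similar or larger size, such as Ndrg1 (3.41), Bnip3 (2.74) and Ddit4 (2.59). Ppp1r3b, which brings protein phosphatase 1 to glycogen and so turns on glycogen synthesis, read 49.9 and 49.9 in ES cells and 356 and 495 in line 2 (2.801 ± 0.26, adjusted p = 1.00e-05). Its relative Ppp1r3c was at or under the floor in ES cells (25.9 and 6.72) and read 164 and 114 in line 2, at least 3.69-fold higher (adjusted p = 0.00244). Both glycogen subunits were also called higher than in lines 1 and 3 (adjusted p = 3.54e-06 and 0.00144). The promoter of Ppp1r3c holds the letters ACGTG, the core of the hypoxia response element, at 2 places when either strand is read. The stretch is printed on the strand of the gene (minus strand, RefSeq, build GRCm38.p6). There the capitals read CACGT, which is ACGTG on the other strand. At the second place the next base completes CACGTG, the E-box letters given with the ribosome biogenesis genes.
Ppp1r3c, chr19:36736679-36736818: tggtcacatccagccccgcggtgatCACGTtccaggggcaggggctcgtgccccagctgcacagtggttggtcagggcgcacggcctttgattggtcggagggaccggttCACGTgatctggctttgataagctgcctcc
ACGTG on either strand was present in 24.4% of the 11275 tested genes with a promoter and in 64.5% of the 31 higher hypoxia and glycolysis genes with one. That list, too, was drawn up from known genes of its response, so its share says nothing about line 2.

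G0s2, an inhibitor of triglyceride breakdown, read 44.2 and 9.66 in ES cells and 207 and 180.3 in line 2 (2.56 ± 0.44, adjusted p = 9.79e-04). Ndufa4l2, a mitochondrial protein known to be induced by low oxygen, was at or under the floor in ES cells (20.7 and 35.6) and at 259.7 and 237 in line 2, at least 6.69-fold higher. Cdc42ep2, an effector of the Cdc42 switch that shapes actin, was at least 5.17-fold higher (9.14 and 20.1 against 198 and 186), and Cmtm8 at least 3.55-fold (6.85 and 4.74 against 152 and 114). Rbm24, an RNA-binding protein of muscle development, read 22.2 and 37.1 against 219 and 218 (2.49), and Cxcl12, the ligand of the chemokine receptor Cxcr4, 38.8 and 23.3 against 191 and 166 (2.17). The amine oxidase Aoc3 read 17.5 and 46.7 against 194 and 216 (2.38). Atp6v0a4, Kbtbd11, Scnn1a and Fgg completed the group of largest rises with H2-Q2, all near or under the floor in at least 1 ES array. Of these, Fgg and Scnn1a were not called without ES replicate 1 (adjusted p = 0.0565 and 0.0743), Atp6v0a4 and Kbtbd11 not without line 2 replicate 1 (0.0896 and 0.0525), Scnn1a not without line 2 replicate 1 (0.058) and Fgg not without line 2 replicate 2 (0.076).

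Among the largest decreases, Sall3, a zinc finger factor of the Sall family, read 112 and 102 in ES cells and 11.6 and 12.8 in line 2, at least 2.88-fold lower. It was also called lower than in lines 1 and 3 (adjusted p = 1.19e-05). Enox1, a surface oxidase, fell from 852 and 852 to 214 and 114 (-2.36 ± 0.21, adjusted p = 6.26e-06). Slc6a15, a transporter of neutral amino acids, fell from 624 and 606 to 152 and 139.6 (-1.99 ± 0.12, adjusted p = 3.68e-07), and Myo1f, an unconventional myosin, from 1896 and 1989 to 657 and 635 (-1.57). Aard read 1605 and 1555 against 429 and 484 (-1.77). Some of the large decreases were common to the iPS lines: Htra1, a secreted protease, fell from 1596 and 1474 to 481 and 404 (-1.77) and was -1.02 and -1.33 in lines 1 and 3. Gpc4, a cell surface glypican, fell from 2398 and 2151 to 734 and 763 (-1.59) and was -0.98 and -0.66 there. Both fell further in line 2 than in the mean of lines 1 and 3 (adjusted p = 0.00201 for Htra1 and 1.74e-05 for Gpc4). Nkx2-3 and Frrs1l were called lower too, but without ES replicate 1 Nkx2-3 was at -0.31 (adjusted p = 0.773) and Frrs1l at -1.89 (0.0838), without ES replicate 2 the adjusted p was 0.0575 and 0.133, and Nkx2-3 was also lost without line 2 replicate 2 (0.0852) and Frrs1l without line 2 replicate 1 (0.227).

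Ligands and effectors of BMP and TGF-beta signalling changed in both directions. Bmp4, which acts with LIF to hold the naive state through the Id genes, fell from 368 and 414 to 81.7 and 86.5 (-2.07 ± 0.15, adjusted p = 1.32e-06), against -0.55 and -0.11 in lines 1 and 3. Bmp7, a ligand of the same family, rose from 73.9 and 77.3 to 304 and 289.6 (1.82 ± 0.22, adjusted p = 6.95e-05). Of the Id targets, Id2 rose from 881 and 788 to 1891 and 2173 (1.27 ± 0.100, adjusted p = 2.48e-06), Id4 fell by 0.43, and Id1 and Id3 were 0.004 and -0.22 and not called. In the Nodal branch Lefty1, the secreted antagonist of Nodal, rose from 510.3 and 662 to 2212 and 2123 (1.88 ± 0.11, adjusted p = 2.66e-07), with 1.58 in line 1 and 0.93 in line 3. Skil (SnoN), a Smad corepressor, rose from 2500 and 2339 to 5487 and 5362 (1.16), and Smad3, a signal carrier of the pathway, from 327 and 336 to 633 and 669 (0.95; adjusted p = 0.0615 with its probe sets averaged). Over the lists 6 of 21 BMP genes were higher and 4 lower (28.6% and 19%, against 16.1% and 10.6% of all genes). Of 25 Nodal and TGF-beta genes 7 were higher and 5 lower (28% and 20%). Without ES replicate 2 the higher BMP genes numbered 3, as they did without line 2 replicate 2, and the lower Nodal genes numbered 2 without ES replicate 2 and 3 without ES replicate 1.

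In the Notch list, a pathway of signalling between touching cells, 8 of 22 were higher (36.4%, against 16.1% of all genes) and 1 was lower. The count of higher members fell to 4 after centring, and it also fell without ES replicate 1 and without line 2 replicate 2. Hes6, which opposes the Notch repressor Hes1, read 189.7 and 245 against 663 and 729 (1.64 ± 0.15, adjusted p = 6.49e-06). The ligand Dll1 was 1.55, the receptor Notch3 read 309.7 and 262 against 668 and 688 (1.22; not called with probe sets that can read related genes left out, adjusted p = 0.695), and Rbpj, the DNA-binding partner of Notch, fell from 4949 and 5114 to 3410 and 3281 (-0.59). In the Wnt list 7 of 33 were higher (21.2%, against 16.1% of all genes) and 6 lower (18.2%, against 10.6%). After quantile normalization 3 of 32 were higher and 7 lower, and after centring 6 of 33 were higher and 7 lower. Fewer were called higher without ES replicate 1 or line 2 replicate 1, and fewer lower without either ES replicate. The median of the Wnt list against ES cells was 0.22 in line 2, 0.20 in line 1 and 0.14 in line 3. Lef1, a nuclear effector of Wnt, rose from 231 and 215 to 854 and 1038 (2.02 ± 0.16, adjusted p = 2.57e-06). Lef1 was up in all 3 lines (1.24 and 1.13 in lines 1 and 3) and furthest in line 2 (adjusted p = 5.41e-04 for the difference). Tcf7l1 (Tcf3), which represses naive genes, fell from 4051 and 3111 to 2050 and 2313 (-0.70 ± 0.13, adjusted p = 0.00131, and 0.0521 without the variance trend).

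In insulin and growth factor signalling 14 of 35 genes were higher (40%, against 16.1% of all genes) and 2 lower (5.71%, against 10.6%). Fewer were called higher without line 2 replicate 2. Igfbp4, a secreted protein that binds insulin-like growth factors, rose from 262 and 198 to 853 and 875 (1.87 ± 0.15, adjusted p = 2.71e-06). Igf2r, the receptor that clears Igf2, rose from 718 and 759 to 1576 and 1378 (0.99 ± 0.10, adjusted p = 1.91e-05), while lines 1 and 3 were at 0.086 and -0.26. Irs1, the adaptor of the insulin receptor, picked after its value was seen, read 15.9 and 6.60 against 111 and 74.8 and was at least 2.45-fold higher. Pik3r3, a regulatory subunit of the lipid kinase PI3K, fell from 329.6 and 293 to 123 and 102 (-1.38 ± 0.17, adjusted p = 8.36e-05). Lysosome and autophagy genes were higher in 13 of 41 cases (31.7%, against 16.1% of all genes) and lower in 2 (4.88%, against 10.6%), and against lines 1 and 3 in 21 and 2 (19.6% and 12.9% of all genes). Cathepsins B and Z, proteases of the lysosome, read 1698 and 1571 against 2789 and 2704 (0.74; adjusted p = 0.0505 with its probe sets averaged) and 2696 and 3294 against 5375 and 4807 (0.77), and Hexa, which degrades gangliosides, 3693 and 3479 against 5410 and 5741 (0.64). With the probe sets of each gene averaged the count of higher lysosome genes was 8. In sterol and fatty acid synthesis 10 of 31 genes were higher (32.3%, against 16.1% of all genes) and 2 lower (6.45%, against 10.6%). Dhcr7, which makes cholesterol in the last step of its pathway, read 569 and 392 against 1419 and 1156 (1.42 ± 0.16, adjusted p = 5.24e-05), the desaturase Scd1 2459 and 2238 against 4349 and 4068 (0.84), and the isomerase Ebp fell from 3176 and 3201 to 2015 and 1896 (-0.70).

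Regulators of DNA methylation fell in part. Dnmt3l, the cofactor that stimulates the new methylation enzymes, fell from 2159 and 2074 to 897 and 864 (-1.25 ± 0.070, adjusted p = 1.80e-07), with -0.21 and 0.29 in lines 1 and 3. Zfp57, a zinc finger protein that keeps imprints methylated, read 363 and 441 against 204 and 160.4 (-1.09 ± 0.16, adjusted p = 2.69e-04; it was picked after its value was seen). Tet2, which oxidises methylated cytosine, fell from 2999 and 2866 to 1935 and 1858 (-0.63), while Tet1 was 0.018 and not called. Dnmt3b was -0.19 and not called against ES cells (adjusted p = 0.0798). In all, 4 of 17 genes of this group were higher (23.5%, against 16.1% of all genes) and 6 lower (35.3%, against 10.6%). Of the JmjC demethylases, oxygen-dependent enzymes that remove methyl groups from histones, 5 of 24 were higher (20.8%, against 16.1%) and 8 lower (33.3%, against 10.6%). Fewer were called lower without ES replicate 1. Kdm7a rose from 258 and 308 to 718 and 758 (1.35 ± 0.14, adjusted p = 2.14e-05) and Kdm4c from 1112 and 1348 to 2016 and 2134 (0.75), while Kdm2b, which guides polycomb to unmethylated promoters, fell from 7470 and 7723 to 5112 and 5142 (-0.57). Jarid2, the family member that lost its enzyme activity and works with polycomb, fell from 8365 and 8148 to 5767 and 5043 (-0.61). In the list of polycomb and BAF chromatin complexes 7 of 47 genes were higher (14.9%, against 16.1% of all genes). Lower members numbered 8 (17.0%, against 10.6%). Among the polycomb genes proper Eed was -0.48, Epop -0.91 and Ezh1 1.12, all called, though Eed was not with its probe sets averaged (adjusted p = 0.113). Setd1b, of a histone methyltransferase complex, fell from 479.9 and 431 to 202 and 206 (-1.11).

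Imprinted genes, expressed from 1 parental copy, were higher in 16 of 49 cases (32.7%, against 16.1% of all genes) and lower in 7 (14.3%, against 10.6%). Zdbf2 fell from 1115 and 975 to 324 and 357 (-1.58 ± 0.12, adjusted p = 2.29e-06), and was lower in lines 1 and 3 too (-1.304 and -0.88). Mest fell from 1277 and 1237 to 635 and 679 (-0.92 ± 0.083, adjusted p = 6.54e-06), while lines 1 and 3 were at 0.31 and 0.55, a difference of -1.36 (adjusted p = 9.67e-08). Mcts2 was -1.21 and Ddc -1.12, both lower, and Sfmbt2 1.01. Meg3 and Rian, the noncoding RNAs of the Dlk1-Dio3 region whose silencing is known in some iPS lines, read 3283 and 3075 against 4019 and 3415 and 1934 and 1785 against 2095 and 2204, with differences of 0.22 and 0.21 that did not pass the test (adjusted p = 0.0691 and 0.0778). The arrays do not separate the parental copies. Germline genes were higher in 14 of 46 cases (30.4%, against 16.1% of all genes) and lower in 9 (19.6%, against 10.6%). Stra8, a gene of entry into meiosis, rose from 884 and 936 to 2632 and 2246 (1.41 ± 0.096, adjusted p = 7.86e-07), Dmrt1 from 1303 and 1255 to 2566 and 2720 (1.04), and Tex19.1, which restrains retrotransposons, fell from 3585 and 3497 to 1998 and 2206 (-0.75).

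Over the interferon list 8 of 28 were higher (28.6%, against 16.1% of all genes) and 4 lower (14.3%, against 10.6%). After quantile normalization 4 were higher and 5 lower, and after centring 5 were higher and 5 lower. Fewer were called higher without ES replicate 1 or without either array of line 2. H2-K1, a class I antigen-presenting protein, rose from 448 and 433 to 838 and 849 (0.92 ± 0.10, adjusted p = 4.55e-05), and H2-Q2 of the same class was at least 3.55-fold higher (26.7 and 9.35 against 112 and 155). These genes are near copies of each other, so their probe sets may read more than 1 of them. Ddx58 (RIG-I), a sensor of foreign RNA, fell from 1159 and 1189 to 579.7 and 480.1 (-1.14 ± 0.10, adjusted p = 6.38e-06). Xaf1 fell from 399.9 and 376 to 137 and 145 (-1.39) and was -0.87 and -1.501 in lines 1 and 3, from whose mean line 2 did not differ (adjusted p = 0.307). Of 2 other antigen presentation genes, picked after their values were seen, B2m (0.47) was not called under 5 of 19 alternatives and H2-D1 (0.53) under 9. Redox genes were called higher in 4 of 30 cases (13.3%, against 16.1% of all genes) and lower in 5 (16.7%, against 10.6%). Of the called ones, Gsto1, a glutathione transferase, fell from 9180 and 9007 to 2847 and 3569 (-1.51 ± 0.091, adjusted p = 3.25e-07), Nqo1 from 1287 and 1135 to 864 and 664 (-0.67), and Txnip, which binds thioredoxin and limits glucose uptake, rose from 2170 and 2026 to 4658 and 4164 (1.07).

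Some of the large differences from ES cells belonged to all 3 iPS lines. Tagln and Acta2, contractile genes of smooth muscle, rose from 116 and 145 to 617 and 424 (1.88) and from 332 and 288 to 1173 and 1146 (1.87). Lines 1 and 3 were at 2.81 and 1.68 for Tagln and at 2.42 and 1.18 for Acta2. The difference of line 2 from their mean was -0.36 for Tagln (adjusted p = 0.114) and 0.068 for Acta2 (adjusted p = 0.588). For Tagln it passed the test without line 2 replicate 1 (-0.62, adjusted p = 0.0264). Mid1, an X-linked ubiquitin ligase, fell from 327 and 283 to 68.2 and 71.7 (-1.95 ± 0.24, adjusted p = 8.36e-05), with -2.23 and -2.14 in lines 1 and 3 (with its probe sets averaged line 2 was at -0.94, adjusted p = 0.054). Anxa2, a membrane-binding annexin, differed between the lines: it rose from 607 and 616 to 2442 and 2062 in line 2 (1.86) and was 0.78 in line 1 and -0.95 in line 3, with a difference of 1.94 between line 2 and their mean (adjusted p = 6.77e-07). The Y-linked Kdm5d read 111 and 117 in ES cells and 346 and 368 in line 2 (1.55) and was up in lines 1 and 3 as well (1.08 and 1.44).

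Most markers of other cell types were not called. Of 34 fibroblast and feeder markers on the array, 9 did not pass the filter on dim values, among them Col1a1, Col3a1, Dcn and Postn. Of the 25 measured 5 were higher in line 2 (20%, against 16.1% of all genes) and 1 lower (4%, against 10.6%). The summed signal of that list was 23920 and 24140 in ES cells and 31060 and 31080 in line 2, and Ccn2 and Fn1 gave most of that gain: Ccn2 read 7526 and 7577 against 11200 and 11390 and Fn1 7916 and 8040 against 11130 and 9834. The other 3 higher members were Acta2, Tagln and Pdgfrb (1.87, 1.88 and 1.68), and the lower one was Zeb1. Among the uncalled members Col1a2, Pdgfra and Twist1 were at -0.047, 0.046 and -0.19, and Thy1 and Lum at 0.73 and 0.67. Primitive endoderm markers had 5 of 26 higher and 4 lower (3 higher without line 2 replicate 1 or either ES replicate), with Gata4 at 61.3 and 31.7 and 44.0 and 57.2 and Sox17 at 58.1 and 64.1 and 102 and 30.5 in ES cells and line 2, and their summed signal was 22040 and 21640 in ES cells and 22100 and 21780 in line 2. Primitive streak markers had 0 of 16 higher (against 16.1% of all genes) and 1 lower (6.25%, against 10.6%), with a summed signal of 1656 and 1775 against 1609 and 1571. Neural markers had 7 of 28 higher (25%, against 16.1%) and 5 lower (17.9%, against 10.6%), with a summed signal of 14770 and 15450 against 16800 and 16230. Fewer of them were called higher without ES replicate 1 or line 2 replicate 1. The part of such cells in the results was not tested.

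The glycolysis and hypoxia genes, for completeness, had 35 of 45 members higher (77.8%, against 16.1% of all genes) and 1 lower (2.22%, against 10.6%). The median of the list against ES cells was 1.11 in line 2, 0.16 in line 1 and -0.23 in line 3. Ddit4, Vldlr and Stc2, described with the stress response, and Bnip3, described with cell death, are on this list as well. Collagen-modifying enzymes overlap with it too: P4ha1, a prolyl hydroxylase subunit, read 200.5 and 214 against 1151 and 966 (2.28 ± 0.14, adjusted p = 3.50e-07), while Serpinh1, the collagen chaperone, was 0.82 in line 2, 0.55 in line 1 and 0.44 in line 3.

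Changes were spread over the chromosomes. The median log2 difference of line 2 from ES cells lay between 0.035 on chromosome 19 (481 genes) and 0.15 on chromosome 12 (493 genes) over the autosomes and X, beside 0.071 over all genes. The 7 measured genes of chromosome Y had a median of 0.41, with 0.25 and 0.59 in the single arrays of line 2, 0.62 and 0.55 in those of line 3 and -0.063 and 0.048 in those of line 1.

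**Figure D5:**
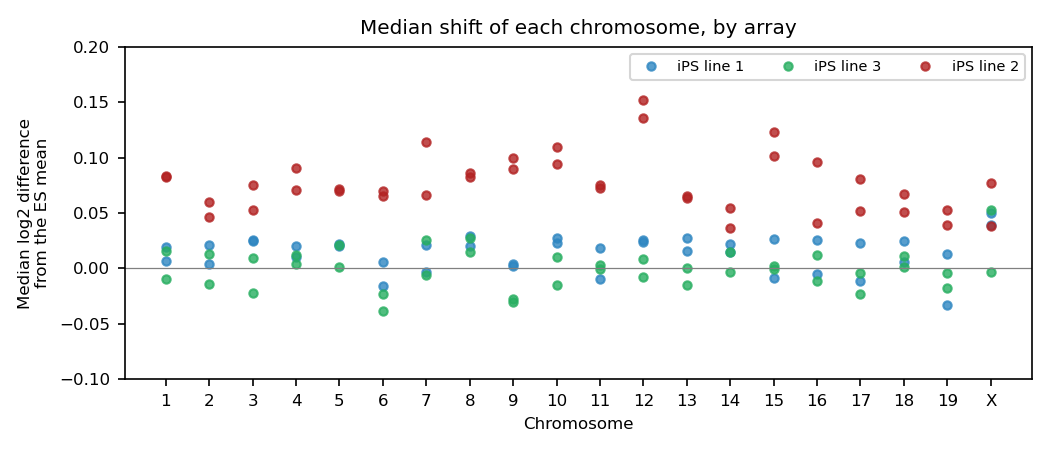
Median log2 difference from the mean of the ES arrays for the genes of each autosome and of X (Y is not plotted), with 1 point for each array of line 1, line 2 and line 3. The points of line 2 lie between 0.036 and 0.15, above most points of the other lines.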

How the data were processed

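Gene expression was measured on 8 Affymetrix Mouse 430 2.0 arrays, 2 each of ES control, iPS line 1, line 2 and line 3. The deposited values are probe set intensities on a linear scale made by the authors with MAS5 (named in the submitters' processing notes), whose version and scaling target the sources used here do not give. The signals share a trimmed mean of 500.004, and 58.1% to 61.4% of probe sets per array exceeded the floor of 37.1, the 40th percentile of all signals. The small number of arrays limits the precision.

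Of 45101 probe sets, 34945 carried 1 gene symbol in the platform annotation, 932 several and 9160 none, and 64 were controls. Gene identifiers of 34741 were found in RefSeq, with 0 symbols updated. Probe sets above the floor in at least 2 arrays were kept, and the one with the highest mean stood for its gene, which gave 14004 genes. Of the 3741 genes called against ES cells, 2203 had several probe sets, and 123 had another probe set moving the opposite way at an unadjusted p under 0.05. The tests were made on log2(signal + 12), so fold changes of dim genes are understated. Group means of all 8 arrays were fitted with limma 3.58.1 in R 4.3.3 (residual degrees of freedom 4, 12.3 after moderation, with an intensity trend), with Benjamini-Hochberg adjustment of p-values across the 14004 genes. Adjusted p, log2 changes and their standard errors all come from this fit. A fold is a lower bound, computed against the floor, if no array of the lower group exceeded the floor. On data simulated for line 2 against ES cells over 14004 genes, 40% of genes changed by 0.5 on the log2 scale, 60% by 1 and 74% by 2 were recovered, with 11 false calls. The simulation drew normal noise and changed only 50, 100 and 50 genes by these sizes. That is far fewer than the 3741 called in the data, so neither the recovery nor the false calls carry over to them. Promoters come from RefSeq (GRCm38.p6).

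The genes named are the 15 highest and 15 lowest against ES cells (mean signal of at least 100 in the higher group, both arrays of line 2 on the same side of both ES arrays, hypoxia list left out), the 8 highest and 8 lowest against lines 1 and 3, up to 5 called members of each list by smallest adjusted p (with up to 2 others where fewer than 3 were called), and always the reprogramming factors, Tagln, Acta2 and Mid1. Clone names were passed over, and some genes the rule took are left out of the text. Those marked in the text, and uncalled genes given as checks, were chosen after their values were seen. The comparison, the lists and the tests were chosen with earlier results of these data known. Replicate numbers did not pair the arrays. Alternatives covered normalization, pseudocount, filter, probe set choice, variance model, arrays in the fit, a replicate block and leaving out each array.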

Additional observations from a re-analysis of the deposited data

Results flagged for a closer look

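Line 2 differed from the mean of lines 1 and 3 in 4552 genes by limma's test of the difference itself, which uses the same arrays of line 2 as the comparison with ES cells. Among the genes the naming rule took and that passed this test, 21 of 193 differed by at least 4-fold, which is 2 on the log2 scale, with 19 higher and 2 lower in line 2. The values here are fitted log2 differences of line 2 from the mean of lines 1 and 3. For Sall3 both arrays of line 2, and for H2-Q2, Fgg, Irf8 and Tspo2 all arrays of lines 1 and 3, were under the floor of 37.1, so their fitted values depend on the pseudocount and show a direction, not a measured size.

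The 2 lower genes were Sall3 (-2.71) and Enox1 (-2.20). Of the higher genes, Ndrg1 (2.998), Bnip3 (2.69), Ddit4 (2.62), Ndufa4l2 (2.53), P4ha1 (2.25), Vldlr (2.18), Bhlhe40 (2.11) and Ero1a (2.07) are known targets of the response to low oxygen. Ppp1r3b (2.65) and Ppp1r3c (2.24) act on glycogen. Membrane and secreted proteins were Fxyd6 (2.53), a regulator of the sodium pump, Aoc3 (2.19), an amine oxidase, Fgg (2.16), the fibrinogen gamma chain, Scnn1a (2.03), a sodium channel subunit, H2-Q2 (2.11), a class I antigen-presenting protein, and Pdgfrb (2.02), a receptor of platelet-derived growth factor. The remaining genes were Tspo2 (3.26), a relative of the mitochondrial translocator protein, Irf8 (2.30), a transcription factor of blood cells, and Dixdc1 (2.16), a modulator of Wnt signalling.

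Tspo2 read 88.4 and 21.4 in the ES arrays and 179.6 and 233 in line 2, and Irf8 44.0 and 19.6 and 119 and 119.8. The comparison of Irf8 with ES cells (1.64, adjusted p = 0.0424) was lost when either ES array or either array of line 2 was left out, with adjusted p between 0.0558 and 0.223. Pdgfrb, which also marks fibroblasts, read 58.2 and 55.9 in ES cells and 247 and 177 in line 2. The part of other cells in it was not tested.

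Probe sets without a usable gene symbol carried signal as well. Of 4565 tested probe sets with no symbol, 272 were higher in line 2 than in ES cells and 133 lower, and of 667 with several symbols 63 were higher and 69 lower. Those with no symbol were called less often than named genes, of which 16.1% were higher and 10.6% lower. Those with several symbols were higher less often and lower about as often. Each named gene was read by its brightest probe set, so these shares are not strictly alike.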

How the results depend on the processing

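The counts of genes called against ES cells were most affected by the variance model: without the intensity trend 2436 genes were called, 889 of them lower, and the lower genes against lines 1 and 3 numbered 1183. After centring each array on its median, 1658 genes were higher than in lines 1 and 3. Leaving out each array in turn gave 2560 to 3701 called genes against ES cells, of which 975 to 1462 were lower, with the smallest count of lower genes without ES replicate 2. The same gave 3247 to 4417 genes against lines 1 and 3. The other counts over all genes stayed within 1.5 times the reported ones under the alternatives run. With the replicate number as a block, 3783 genes were called against ES cells and 4588 against lines 1 and 3, and the correlation of same-numbered arrays after removing group means was between -0.011 and 0.030 over 6 pairs.

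Of 220 named genes called against ES cells, 160 were called under all 19 alternatives, 46 were lost under 1 to 3 and 14 under 4 or more. Against lines 1 and 3, 143 of 193 were called under all, 44 were lost under 1 to 3 and 6 under 4 or more. The sign turned for 3 genes. With probe sets averaged, Kif23 was at -0.039 against ES cells, and Ndufb8 at -0.15 against ES cells and -0.17 against lines 1 and 3. With probe sets that can read related genes left out, Slc38a1 was at 0.19 and 0.15. None of these values passed the test, and each was measured on a different set of probe sets than the reported one. The number of arrays and the floor limit what can be said of dim genes.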
